A study of Mus musculus with 2 samples.

Results

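Immediate early genes are switched on within minutes of a stimulus, without new protein synthesis, and 10 of them were followed here in mouse liver with and without MMP-14, a metalloproteinase anchored in the cell membrane. The genes were Fos, Fosb, Jun, Junb, Atf3, Egr1, Klf4, Ier2, Ier3 and Dusp1. They were taken as a list of names, chosen when earlier results of these data were known, so their counts beside those of all genes are descriptions. They are 10 of the 16390 genes that the array names by a symbol, with 1 probe each. Each probe was read in both channels of 2 arrays, and the log2 ratio of knockout (KO) over wild type (WT) was formed within each array.

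The later array compared whole liver of MMP-14 KO mice with whole liver of WT mice. The sample labels call this stage postnatal day 1 (P1), whereas the design text gives E18.5, before birth, and the name P1 is used below. Each of its RNA pools mixed 2 livers. The earlier array compared MMP-14 KO with WT Dlk+ cells, a fetal liver population rich in hepatoblasts, sorted as Dlk+CD45-CD71-Ter119- cells from livers labelled embryonic day 14 (E14, but E14.5 in the design text), with 100000 cells from 3 livers in each pool. KO RNA carried Cy3 and WT RNA carried Cy5 on both arrays. The strain and the KO allele are not given in the sources used here. No array was repeated and no dye was swapped, so no test was possible, and a dye effect on a probe and an effect of genotype cannot be told apart.

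Fos and Jun proteins pair as the AP-1 transcription factor, which binds short sites in the promoters and enhancers of many genes. In the textbook scheme, growth factors acting through ERK kinases switch on Fos and Egr1 by way of serum response factor (SRF) and its ETS partners, and cyclic AMP acts on Fos through CREB. JNK and p38 kinases, activated by stress, act on Jun and Atf3. In liver the same genes respond to partial hepatectomy, and enzymatic dissociation of a tissue into cells is also known to induce them.

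RefSeq promoter windows (mouse build GRCm38.p6, 250 bases before to 50 bases after the annotated start) were found for 8 of the 10 genes, with Egr1 and Ier2 not matched. Fos, Klf4 and Ier3 are printed because they were among the genes at least 2-fold lower in KO liver at P1, and Dusp1 because it had the highest KO over WT ratio of the set in E14 cells. Capitals mark the first letters of a cyclic AMP response element (CRE, TGACGT) or the full CRE (TGACGTCA), a TATA box (TATAAA) and sites for EGR proteins (GCGNGGGCG, in Klf4 on the opposite strand). Fos lies at chr12:85473640-85473939 (plus strand), Klf4 at chr4:55532426-55532725 (minus strand), Ier3 at chr17:35821463-35821762 (plus strand) and Dusp1 at chr17:26508423-26508722 (minus strand). Each sequence runs along the strand of its gene.
Fos: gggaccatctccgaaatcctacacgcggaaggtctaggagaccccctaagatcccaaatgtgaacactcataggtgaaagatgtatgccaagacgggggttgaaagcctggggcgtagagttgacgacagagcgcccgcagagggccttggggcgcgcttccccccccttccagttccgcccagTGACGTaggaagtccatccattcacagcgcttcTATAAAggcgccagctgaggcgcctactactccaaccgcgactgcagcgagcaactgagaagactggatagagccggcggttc
Klf4: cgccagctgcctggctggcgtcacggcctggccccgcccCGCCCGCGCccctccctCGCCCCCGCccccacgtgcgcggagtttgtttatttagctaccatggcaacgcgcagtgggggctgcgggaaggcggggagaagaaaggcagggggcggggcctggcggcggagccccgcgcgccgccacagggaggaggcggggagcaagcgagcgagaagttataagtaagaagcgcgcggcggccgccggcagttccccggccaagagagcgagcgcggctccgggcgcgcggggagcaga
Ier3: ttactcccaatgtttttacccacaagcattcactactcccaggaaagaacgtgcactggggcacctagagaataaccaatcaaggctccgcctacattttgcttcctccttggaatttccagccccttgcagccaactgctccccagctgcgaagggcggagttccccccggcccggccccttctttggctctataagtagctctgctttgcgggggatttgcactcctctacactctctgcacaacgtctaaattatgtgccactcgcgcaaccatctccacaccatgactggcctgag
Dusp1: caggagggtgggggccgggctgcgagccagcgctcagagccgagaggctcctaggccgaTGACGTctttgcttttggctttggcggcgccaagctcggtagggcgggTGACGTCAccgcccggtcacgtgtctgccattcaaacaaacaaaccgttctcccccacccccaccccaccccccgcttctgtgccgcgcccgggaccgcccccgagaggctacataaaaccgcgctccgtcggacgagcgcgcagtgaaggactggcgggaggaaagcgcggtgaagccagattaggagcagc

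The Fos window held the CRE letters 66 to 61 bases before the start and the TATA box 33 to 28 bases before it. The Dusp1 window held a full CRE 143 to 136 bases before the start and the 6 CRE letters once more 191 to 186 bases before it. Klf4 had EGR sites 211 to 203 and 194 to 186 bases before its start. On both strands, the full CRE occurred in 1.79% of all 32851 promoter windows and in 1 of the 8 member windows (Dusp1). The 6 CRE letters, which are part of the full CRE and were searched after the sequences had been read, occurred in 7.51% of windows and in 3 of the 8 (Fos, Dusp1 and Atf3). An EGR site stood in 5.55% of windows and 2 of the 8 (Fosb and Klf4), and the TATA letters in 13.6% and 2 of the 8 (Fos and Junb). The AP-1 site TGANTCA (7.81% of windows) and the CArG box, the site of SRF (1.63%), had no match in any of the 8, Ier3 had no match to any of the searched motifs, and a missing match says only that these letters are not in this window.

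The arrays held 12715 named genes detectable in both channels at P1 and 12705 at E14. A spot was called detectable above the trimmed mean of the blank spots plus 2 SD, which came to 87.0 scanner units for KO and 50.5 for WT at P1, and to 85.1 for KO and 44.3 for WT at E14. All 10 immediate early genes passed in all 4 pools. Raw KO signals ran above raw WT signals by a median factor of 1.65 at P1 and 2.09 at E14, so raw signals of the 2 channels are not on one scale, and the log2 ratios below were made after loess normalisation within each array. Different probes of one gene differed by an SD of 0.23 log2 units at P1 and 0.12 at E14 (139 genes with several probes). This SD serves here only as a yardstick, since there were no replicates. It was taken within 1 array, so it does not measure the spread between animals, RNA pools, labellings or arrays. Mmp14 itself had a log2 ratio of -1.30 at P1 and -1.13 at E14, lower in KO on both arrays. Dlk1, the marker used for the sort, read 11869 units in E14 KO cells and 4971 in E14 WT cells, and all 10 hepatoblast markers on the array were detectable in all 4 pools.

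The P1 WT pool, labelled as liver, also held transcripts of lung. All 14 lung epithelium markers were detectable in P1 WT liver and 10 of them in P1 KO liver (Sftpb, Nkx2-1, Lamp3 and Cldn18 were not), and their summed level (linear units after normalisation) was 1374 in P1 KO liver, against 55384 in P1 WT liver. Sftpc, a surfactant protein of the lung, read 187 units in P1 KO liver, against 24038 units in P1 WT liver. At E14 the summed level of the list was 971 units in KO cells and 984 in WT cells, with 8 of 14 detectable in each. Summed levels here and below include undetectable genes and an offset of 50 added to each signal, so small sums are not transcript amounts. Every P1 ratio below is set against this WT pool, no other P1 WT pool was measured, and the part of the lung transcripts in the immediate early gene ratios was not tested.

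**Figure D1:**
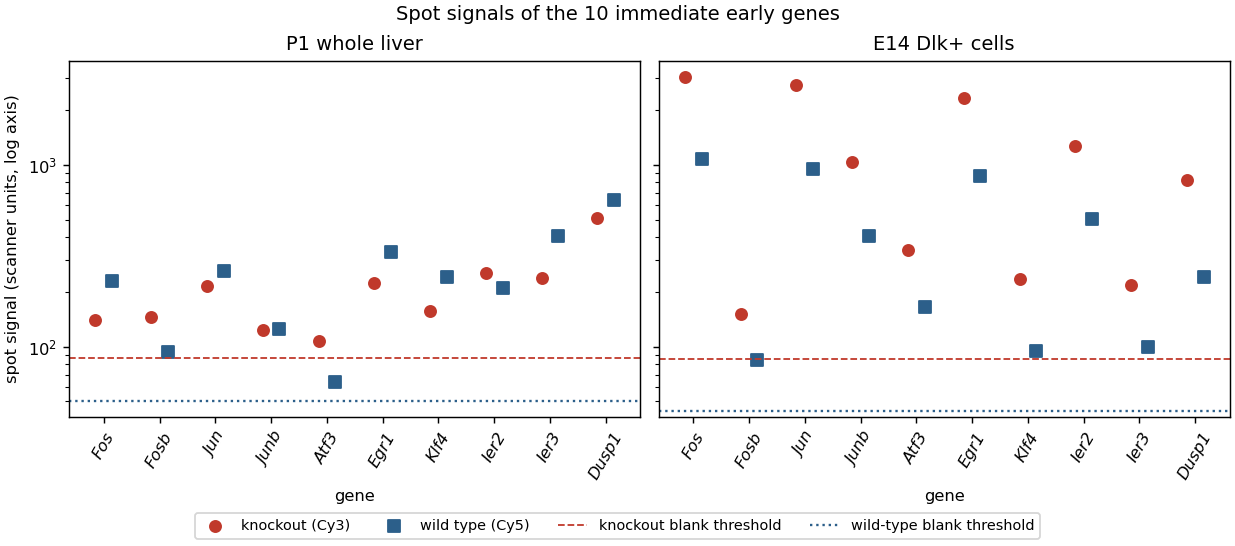
Raw spot signal of each gene in scanner units on a log axis, for KO (circles, Cy3) and WT (squares, Cy5), in P1 whole liver on the left and E14 Dlk+ cells on the right, with the blank-spot threshold of each channel as a line. All points lie above their own threshold, and Fos, Jun and Egr1 reach 3033, 2762 and 2338 units in E14 KO cells, and read at most 332 units in either P1 pool.

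In P1 whole liver, most of these genes were lower in KO than in WT. Of the 10 ratios, 8 were below 0, with a median of -0.88, beside -0.00 over all genes, of which 50.4% were below 0. Fos, Jun, Junb, Egr1, Klf4, Ier3 and Dusp1 were at least 1.5-fold lower in KO, 7 of 10, beside 4.12% of all detectable genes. Fos, Egr1, Klf4 and Ier3 were at least 2-fold lower, 4 of 10, beside 1.45% of all genes. No member was at least 1.5-fold higher in KO (2.85% of all genes) or at least 2-fold higher (0.558%). Because these are bulk tissues, fewer cells of a type and less RNA per cell cannot be told apart.

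Among the AP-1 subunits, Fos had the lowest ratio. Its signal was 140 units in P1 KO liver, against 230 units in P1 WT liver, giving a log2 ratio of -1.30, or 2.47-fold lower in KO after normalisation, and only 0.747% of genes had a lower ratio. The KO signal was 1.61 times its threshold and the WT signal 4.55 times. Fos also sat on a raised local background of 118 units in the KO channel and 161 in the WT channel, and its ratio was -0.75 when normexp used that background and -2.09 in the authors' deposited table.

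Jun, the main partner of Fos, had 214 units in P1 KO liver, against 261 units in P1 WT liver, a log2 ratio of -0.83 (1.78-fold lower in KO). Junb, a JUN subunit with weaker activating capacity than Jun, had 123 units in P1 KO liver and 124 in P1 WT liver. These nearly equal raw readings became a log2 ratio of -0.61 (1.53-fold lower in KO) once the brighter KO channel had been normalised, and the ratio was -1.33 in the authors' deposited table. For Fos and Jun, by contrast, the raw KO signal was already below the raw WT signal.

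Fosb and Atf3 were the members with ratios above 0 at P1. Fosb, a second FOS subunit, read 145 units in P1 KO liver, against 93.0 units in P1 WT liver, and its log2 ratio of 0.08 stood above 68.1% of genes. Atf3, a stress-induced factor that can pair with Jun, read 107 units in P1 KO liver and 64.3 in P1 WT liver, for a log2 ratio of 0.07. Both ratios were smaller than the SD between probes. Atf3 was slightly lower in KO with the local background subtracted (-0.25), and it was only 1.23 times its threshold in KO and 1.27 times in WT, so a difference at such levels would be compressed by the offset added to each signal.

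Both zinc finger factors were lower in KO liver. Egr1, which binds GC-rich sites near the starts of its targets, read 224 units in P1 KO liver, against 332 units in P1 WT liver, a log2 ratio of -1.12 (2.18-fold lower in KO). Its local background was raised, at 155 units in KO and 186 in WT. The Egr1 ratio was -0.81 with that background in normexp, -0.92 with median centring and -1.44 in the authors' deposited table. Klf4, which takes part in cell cycle arrest and in epithelial and endothelial differentiation, read 157 units in P1 KO liver, against 240 in P1 WT liver, a log2 ratio of -1.19 (2.28-fold lower in KO). In each of the pair, fewer than 2 in 100 genes had a lower ratio, 1.10% for Egr1 and 0.936% for Klf4. 

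The IER genes differed from one another. Ier3, a modulator of cell survival and of ERK signal duration, had the lowest ratio of the set, with 238 units in P1 KO liver, against 408 units in P1 WT liver, and a log2 ratio of -1.35 (2.54-fold lower in KO). Ier2, a nuclear protein encoded by an early growth factor response gene, read 256 units in P1 KO liver and 210 units in P1 WT liver. Its log2 ratio of -0.23 (1.18-fold lower in KO) was about as large as the SD between probes, and 15.2% of genes had a lower one.

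Dusp1, the phosphatase that removes the activating phosphates from p38, JNK and ERK, was the brightest of the set at P1. It read 507 units in P1 KO liver, against 644 units in P1 WT liver, and its log2 ratio was -0.93 (1.90-fold lower in KO), with -0.92 in the authors' deposited table. Its local background was also the highest of the set, at 306 units in KO and 406 in WT, and with the local background in normexp the ratio was -0.38. In the authors' deposited table, 6 of the 10 genes were at least 2-fold lower in KO at P1 (Fos, Jun, Junb, Egr1, Klf4 and Ier3), where 5.04% of all genes were.

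Fos, Jun, Egr1, Klf4, Ier2 and Ier3 were of similar brightness. When the P1 genes were split by mean brightness into 4 groups of equal size, all 6 lay in the second brightest, in which 5.16% of genes were at least 1.5-fold lower in KO and 1.83% at least 2-fold lower. Of these 6 members, all but Ier2 were past 1.5-fold, and all but Ier2 and Jun were past 2-fold.

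**Figure D2:**
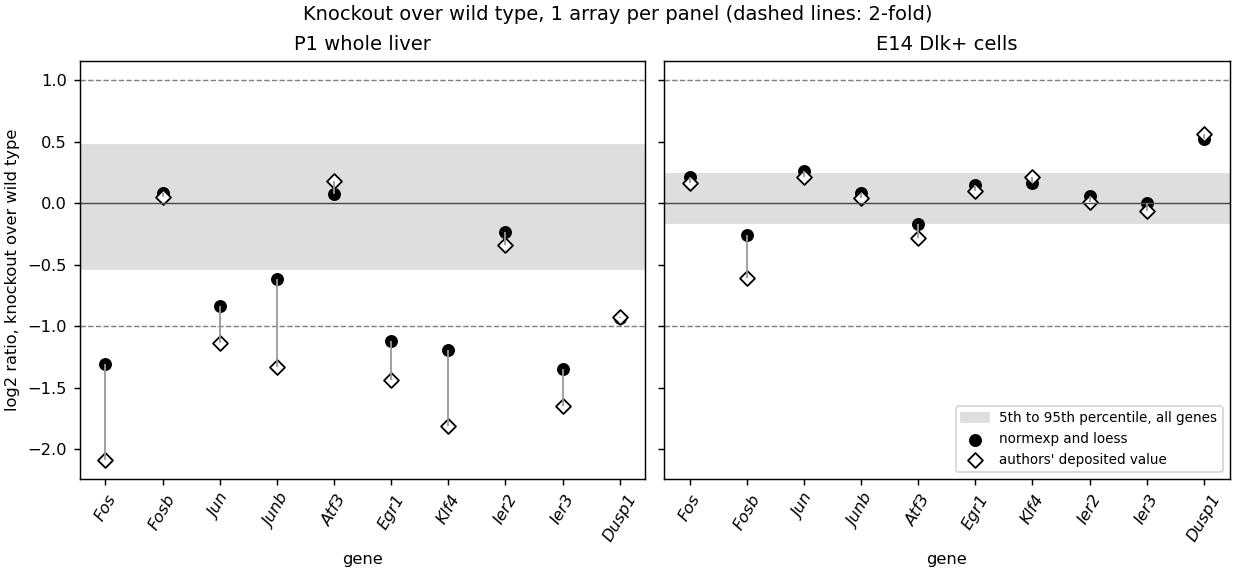
Log2 ratio of KO over WT for each gene in P1 whole liver and in E14 Dlk+ cells, as filled circles after normexp and loess and as open diamonds in the authors' deposited table, with the 5th to 95th percentile of all genes as a band and dashed lines at 2-fold. In P1 liver the filled circles run from -1.35 (Ier3) to 0.08 (Fosb), and in E14 cells from -0.26 (Fosb) to 0.52 (Dusp1).

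In E14 Dlk+ cells the same genes lay close to 0. Of the 10 ratios, 2 were below 0 (Fosb and Atf3) and 8 above, counting Ier3 at 0.00, with a median of 0.12, beside 0.01 over all genes, of which 46.9% were below 0. In the reported setting none reached 1.5-fold in either direction, where 0.22% of all genes were that much lower in KO and 0.307% that much higher. None reached 2-fold either (0.0945% of all genes lower, 0.0157% higher, and 0.268% lower in the authors' deposited table).

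Dusp1 had the highest ratio in these cells. It read 824 units in E14 KO cells, against 241 units in E14 WT cells, a log2 ratio of 0.52 or 1.44-fold higher in KO, above 99.5% of genes. Dusp1 was lower in KO in P1 liver, the opposite direction. Dusp1 and Jun were the members whose E14 ratio exceeded 0.24, the 95th percentile of all genes.

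Fos, Jun and Egr1 were bright in both pools of sorted cells. Fos read 3033 units in E14 KO cells, against 1077 units in E14 WT cells, for a log2 ratio of 0.22. Jun read 2762 units in E14 KO cells and 951 in E14 WT cells, for a ratio of 0.26, above 96.0% of genes. Egr1 read 2338 units in E14 KO cells and 870 in E14 WT cells, for a ratio of 0.15. Each of these ratios was larger than the SD of 0.12 between probes of a gene, and each corresponds to at most 1.20-fold in this setting. Fos sat on a local background of 1936 units in E14 KO cells and 829 in E14 WT cells, and its ratio was 1.01 with that background in normexp, 1.05 with it subtracted and 0.94 with median centring. The Egr1 ratio was 0.03 with the local background in normexp and -0.04 with it subtracted, so its direction at E14 did not hold in the second of these.

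The other subunits lay on both sides of 0. Fosb read 152 units in E14 KO cells, against 84.6 units in E14 WT cells, and its log2 ratio of -0.26 was lower than all but 1.28% of genes. In the authors' deposited table the Fosb ratio was -0.60, past 1.5-fold. Its signal was only 1.78 times the threshold in KO and 1.91 times in WT, where the offset compresses a difference. Atf3 read 340 units in E14 KO cells and 166 in E14 WT cells, for a ratio of -0.17 that became 0.32 with median centring in place of loess. Junb read 1030 units in E14 KO cells and 405 in E14 WT cells, for a ratio of 0.08. Thus the FOS and JUN subunits with the brightest signals stood above 0 and the dimmest one, Fosb, below it.

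Of the remaining genes, Klf4 read 237 units in E14 KO cells, against 95.1 units in E14 WT cells, a log2 ratio of 0.17. Ier2 read 1270 units in E14 KO cells and 506 in E14 WT cells, for a ratio of 0.06. Ier3, which had the lowest ratio at P1, read 219 units in E14 KO cells and 98.9 in E14 WT cells and had no difference after normalisation (0.00). Median centring in place of loess shifted the median of all E14 genes to 0.29 and that of the members to 0.74, and that of the brightest of 4 groups of E14 genes, which holds Fos, Jun, Junb, Egr1, Ier2 and Dusp1, to 0.69, so the size of the small positive E14 ratios rests on the normalisation.

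The level of each gene across the 4 pools is given as log2 intensity after loess and scaling of the mean intensity between arrays. Array, stage, sorting and tissue cannot be told apart in these level differences. Fos stood at 6.72 in P1 KO liver and 8.03 in P1 WT liver, against 10.91 in E14 KO cells and 10.70 in E14 WT cells. Fos was thus 18.3-fold lower in P1 liver than in E14 cells among KO pools and 6.36-fold lower among WT pools. Jun stood at 7.42 in P1 KO liver and 8.25 in P1 WT liver, against 10.75 in E14 KO cells and 10.49 in E14 WT cells.

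Egr1 followed the same order, with 7.48 in P1 KO liver and 8.60 in P1 WT liver, against 10.50 in E14 KO cells and 10.35 in E14 WT cells. Junb stood at 6.51 in P1 KO liver and 7.13 in P1 WT liver, against 9.31 in E14 KO cells and 9.22 in E14 WT cells. Ier2 stood at 7.71 in P1 KO liver and 7.94 in P1 WT liver, against 9.61 in E14 KO cells and 9.55 in E14 WT cells. For these 5 genes the order was E14 KO, E14 WT, P1 WT, P1 KO from high to low. Within E14, the levels of Junb and of Ier2 in KO and WT differed by less than the SD between probes.

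Atf3 was also lower in P1 liver, at 6.28 in KO and 6.21 in WT, than in E14 cells, at 7.78 in KO and 7.95 in WT, and its P1 levels differed by less than the SD between probes. Fos, Jun, Junb, Egr1, Ier2 and Atf3 were the 6 members at least 2-fold lower at P1 than at E14, in the KO pools (6.31% of all genes) and equally in the WT pools (4.82% of all genes). The median difference of the members, P1 minus E14, was -1.70 in KO and -1.67 in WT, beside -0.06 over all genes in each genotype.

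Ier3, Klf4 and Dusp1 had another order. Ier3 stood at 7.57 in P1 KO liver and 8.91 in P1 WT liver, against 7.19 in both E14 pools. Klf4 stood at 6.91 in P1 KO liver and 8.11 in P1 WT liver, against 7.31 in E14 KO cells and 7.15 in E14 WT cells. Dusp1 stood at 8.73 in P1 KO liver and 9.66 in P1 WT liver, against 9.01 in E14 KO cells and 8.49 in E14 WT cells. All 3 were highest in P1 WT liver, and Ier3 (3.30-fold) and Dusp1 (2.26-fold) were the 2 members at least 2-fold higher at P1 than at E14 in WT (6.66% of all genes), while no member was so in KO (6.16% of all genes). Fosb spanned only 0.26 log2 units over the 4 pools, the narrowest range of the set, whereas Fos spanned 4.19.

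**Figure D3:**
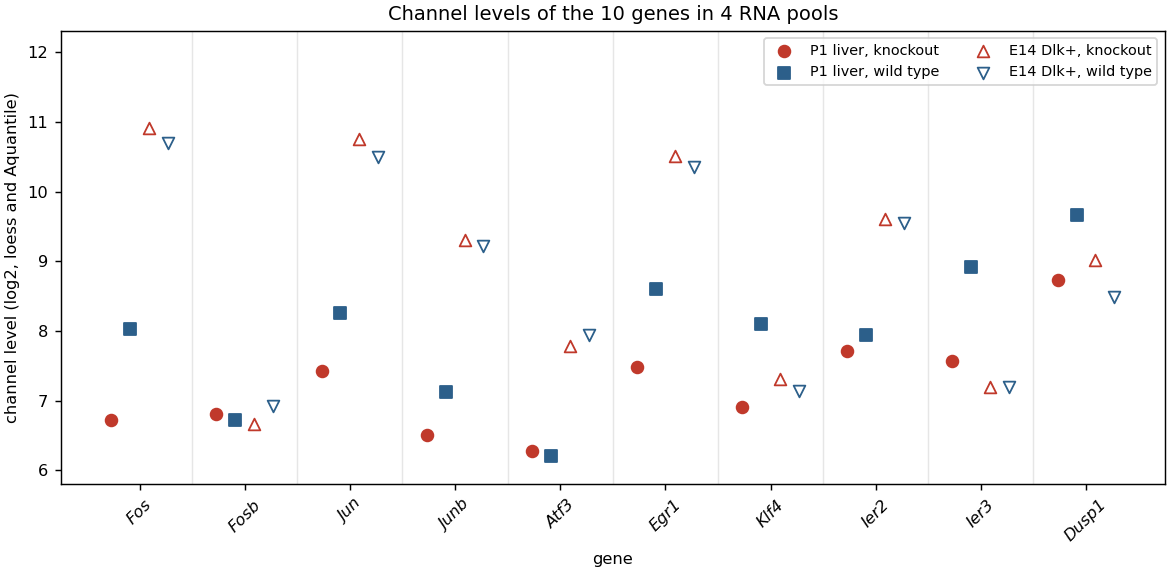
Normalised log2 intensity of each gene in the 4 RNA pools (P1 KO, P1 WT, E14 KO, E14 WT). Fos, Jun, Junb, Egr1, Ier2 and Atf3 lie higher in both E14 pools than in both P1 pools, Ier3, Klf4 and Dusp1 peak in P1 WT liver, and Fosb stays between 6.67 and 6.93.

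The KO over WT ratio itself differed between the arrays for most members. P1 minus E14, the log2 ratio differed by -1.52 for Fos, -1.45 for Dusp1, -1.36 for Klf4, -1.35 for Ier3, -1.27 for Egr1 and -1.09 for Jun. These 6 were at -1 or lower, where 1.77% of the 12005 genes detectable on both arrays were. The difference was smaller for Junb (-0.70) and Ier2 (-0.29), and positive for Atf3 (0.24, but -0.26 with median centring) and Fosb (0.34). The median over the members was -1.18, beside -0.00 over all genes, and with 1 array per stage the difference was not tested.

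Other genes of the AP-1 and ATF families lay near 0 in the reported setting. Of 11 detectable in both channels at P1, 3 had ratios below 0, none was past 1.5-fold, and the median was 0.08, with the small Maf proteins Maff at 0.35 and Mafg at 0.27 and the lymphoid AP-1 factor Batf at -0.24 as the largest differences. In the authors' deposited table the P1 median was 0.27, and Creb1 (0.74), Atf7 (0.73) and Batf (-0.70) were past 1.5-fold. There 12.2% of all genes were that much lower and 11.9% that much higher. Atf7 and Creb1 read close to their thresholds at P1, where the offset compresses a difference. At E14, 10 were detectable and none was past 1.5-fold as reported, with a median of 0.04.

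Other early response genes went both ways. Of 34 detectable at P1, 6 were at least 1.5-fold lower in KO and 3 at least 1.5-fold higher, with a median of -0.12, or 0.01 with median centring. Ccn1, a matricellular protein, stood at -1.30 and Plk2, a polo-like kinase, at -1.05, followed by Klf10, Ier5, Nr4a1 and Ccn2 between -0.75 and -0.59. Plk3, another polo-like kinase, stood at 1.15, Gadd45b, a stress-induced growth arrest gene, at 0.89 and Myc at 0.70. At E14, none of 34 passed 1.5-fold and the median was 0.08, with Ccn1 at 0.57.

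The ERK pathway was read through its feedback targets and its components. Of 10 detectable feedback targets at P1, 9 had ratios below 0 with a median of -0.11 (-0.44 in the authors' deposited table). As reported, only Phlda1 (-0.64) was past 1.5-fold. In the authors' deposited table Epha2 (-0.98), Phlda1 (-0.97), Spry1 (-0.92), Spry4 (-0.85) and Spred3 (-0.62) were, where 12.2% of all genes were that much lower. Spry1, an inhibitor of receptor tyrosine kinase signalling, stood at -0.45 and Dusp6, an ERK phosphatase, at -0.24. At E14 the feedback targets had a median of 0.01 over 11 genes, with Dusp6 at 0.30, Phlda1 at 0.27 and Spry1 at 0.16, and none was past 1.5-fold.

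Among 23 detectable genes of the ERK cascade and the SRF group at P1, the median was -0.09 and 16 were below 0. Egfr, the receptor for epidermal growth factor, was the one past 1.5-fold as reported, with a ratio of 1.07 at P1 and 0.59 at E14, higher in KO on both arrays. In the authors' deposited table others were past it at P1 too, in both directions, among them Fgfr1 (-1.44) and Met (1.09). Mapk3, which encodes the kinase ERK1, stood at -0.55 at P1 and -0.19 at E14. The JNK and p38 cascade held 11 detectable genes at P1, with a median of 0.03 and none past 1.5-fold as reported (Map2k6 was at 1.01 in the authors' deposited table). At E14 none of its 12 detectable genes was past 1.5-fold. These are RNA levels, and phosphorylation of the kinases was not measured.

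Genes that respond to heat and handling were mixed at P1. Of 13 detectable, 3 were at least 1.5-fold lower in KO, the chaperones Hspb1 (-1.15), Dnajb1 (-0.93) and Dnajb4 (-0.65), and Ddit4, a stress and glucocorticoid response gene, was higher (1.17). The median was -0.14, but 0.29 with median centring and 0.04 in the authors' deposited table. At E14 none was past 1.5-fold, Hspb1 being nearest to it at 0.58, and the median was -0.00. The labels give no time between death or dissociation and lysis, and the part of handling in these ratios was not tested.

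Glucocorticoid and fasting genes of liver ran the other way at P1. Of 14 detectable, 9 were at least 1.5-fold higher in KO and 6 at least 2-fold higher, with a median of 0.80, led by Lpin1 (2.73), Tat (1.73), Ppargc1a (1.67) and Mt2 (1.51). At E14 the median was -0.02, and the metallothioneins Mt1 (-1.38) and Mt2 (-2.01), whose spots were read near the top of the scanner range, were at least 2-fold lower in KO.

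**Figure D4:**
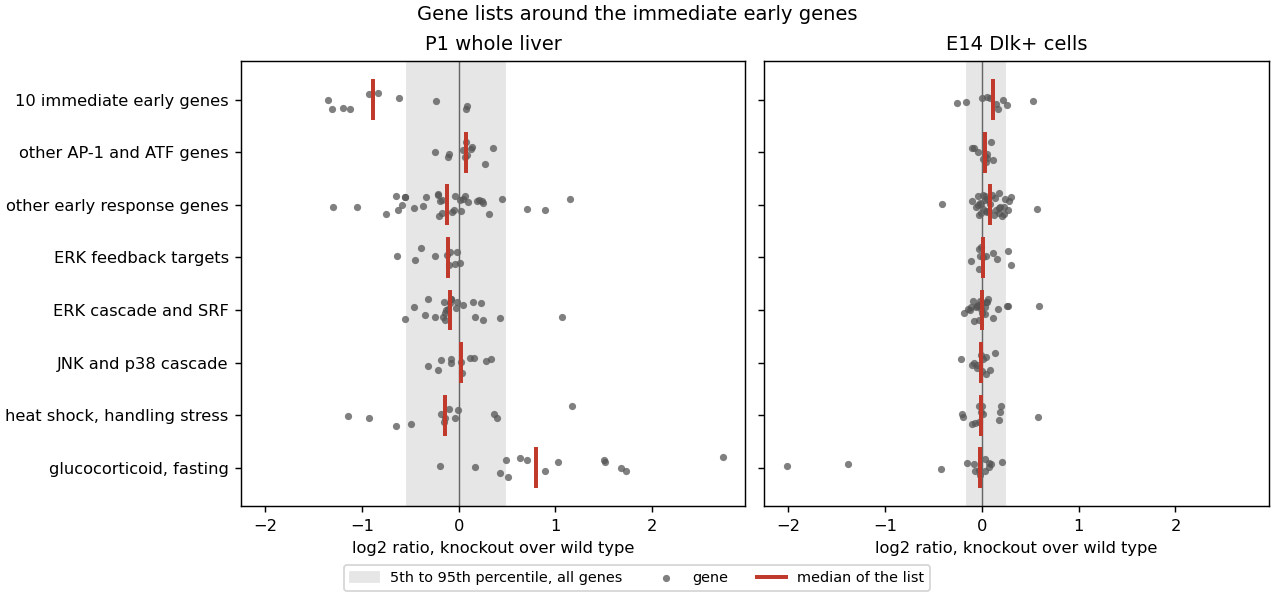
Log2 ratio of KO over WT for each detectable gene (points) of the immediate early set and 7 related lists, with the median of each list as a bar and the 5th to 95th percentile of all genes as a band, in P1 whole liver and E14 Dlk+ cells. At P1 the immediate early genes have a median of -0.88 and the glucocorticoid and fasting genes one of 0.80, and at E14 the list medians lie between -0.02 and 0.12.

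Markers of other cell types also moved with the P1 comparison. The 10 lung epithelium markers detectable in both P1 pools had a median log2 ratio of -4.83. Summed endothelial markers came to 4343 units in P1 KO liver and 6654 in P1 WT liver, with 11 of 12 detectable in KO and 12 of 12 in WT. The median ratio of the endothelial list was -0.51, with 8 genes below 0 and 3 above. Stellate and fibroblast markers came to 3755 units in P1 KO liver and 6568 in P1 WT liver (15 of 15 detectable in each). The median ratio of that list was -0.14 as reported, the value nearest to 0 among the settings run. It was -0.57 in the authors' deposited table and -0.66 with the local background subtracted. The markers past 1.5-fold as reported were 4 of 15: Acta2 (-2.11), Col3a1 (-1.93), Col1a2 (-1.82) and Tagln (-1.54). Erythroid markers came to 6718 units in P1 KO liver and 10538 in P1 WT liver (9 of 9). The erythroid median ratio was -0.57, with 8 genes below 0 and Tfrc (0.36) above. Neutrophil markers summed to 39180 units in P1 KO liver and 60096 in P1 WT liver (8 of 8), and macrophage markers to 8810 in P1 KO liver and 9409 in P1 WT liver (11 of 11). The neutrophil median ratio was -0.35 but 0.16 with median centring. The members themselves summed to 1681 units in P1 KO liver and 3088 in P1 WT liver.

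In E14 cells the stellate and fibroblast markers summed to 18067 units in KO cells and 12926 in WT cells, all 15 being detectable in each, with a median ratio of 0.46 and 5 at least 1.5-fold higher in KO. Neutrophil markers summed to 699 units in E14 KO cells and 587 in E14 WT cells, and all 7 detectable in both had ratios above 0, with a median of 0.32. Camp (44.9 units), Ngp (45.8) and Ltf (47.1) were close to the threshold of 44.3 in E14 WT cells. The ratios of Ltf (0.01) and Ngp (0.04) were smaller than the SD of 0.12 between probes. Hepatoblast markers summed to 110320 units in E14 KO cells and 239513 in E14 WT cells, with 4 of 10 at least 1.5-fold lower in KO (Ttr, Alb, Afp and Apoa1, among the brightest spots of the array) and a median of -0.08. At P1 they summed to 111556 units in KO liver and 204854 in WT liver, with 3 of 10 at least 1.5-fold lower (Ttr, Alb and Apoa1) and a median of 0.03. On both arrays Ttr, Alb, Afp and Apoa1 were read as whole numbers, near the top of the scanner range, in at least 1 channel. Raw Alb readings were 37592 units in E14 KO cells and 37881 in E14 WT cells. These sums rest mainly on those spots, and the other hepatoblast markers lay between -0.12 (Hnf4a) and 0.09 (Foxa1) at E14. The members summed to 7662 units in E14 KO cells and 6769 in E14 WT cells. Macrophage markers, which the sort on CD45 should remove, summed to 811 units in E14 KO cells and 826 in E14 WT cells, with 9 of 11 detectable in KO and 7 of 11 in WT. That sum includes the undetectable genes and the offset of 50 per signal, so it is not a transcript amount. Erythroid markers summed to 1182 units in E14 KO cells and 1156 in E14 WT cells (9 of 9). The part of any of these cell types in the ratios of the immediate early genes was not tested.

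The genes nearest to the members' median pair of ratios (-0.88 at P1 and 0.12 at E14) were Dock6, Efnb2, Apbb1, Rtkn2, Plac8 and Fgf1, taken as the 6 with the smallest Euclidean distance over the 2 arrays. Efnb2, an ephrin ligand of arterial endothelium, had ratios of -0.87 at P1 and 0.10 at E14. Fgf1, a fibroblast growth factor, had -0.84 at P1 and 0.13 at E14, and Dock6, a guanine nucleotide exchange factor, had -0.89 at P1 and 0.13 at E14. The 6 distances ran between 0.0184 and 0.0443 log2 units.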

How the data were processed

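Per the labels, total RNA was amplified, coupled to Cy5 (WT) or Cy3 (KO) and hybridised to 2 two-colour arrays. Per the file headers, scanner software joined several gains into 1 intensity per spot and channel, and these deposited intensities are raw. The authors also deposited log2 ratios (KO over WT). Set against the scanner values, those ratios matched log2 ratios after subtraction of the blank-spot mean and centring on the median (Pearson correlation 1 at P1 and 0.999995 at E14 across probes).

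Ratios were computed with limma 3.58.1 in R 4.3.3: normexp with an offset of 50 on the spot signal, then loess inside each array with blank and control spots at weight 0, then the mean over spots and probes. The normalisation script was tested on simulated data, with fold changes placed only in spots well above the blank mean. That test did not cover dim spots such as those of Fosb and Atf3 at P1. Levels were scaled between arrays with limma's Aquantile. Blank thresholds used means trimmed by 5% at each end. Scanner names were updated through gene tables: 12622 probe symbols were current, 3947 were updated, 62 were kept and 6842 probes had no symbol. The 10 genes and all lists were chosen with earlier results of these data known. Genes of a list could be named if among the 4 largest absolute ratios on an array, but not all such genes were. Mmp14 and the 6 nearest genes were named too. Klf10, Ier5, Nr4a1, Ccn2, Myc, Dlk1, Creb1, Atf7, Spry4, Spred3 and Fgfr1 were named after their values were seen. So were Foxa1, Ltf, Ngp, Camp, some of the cell markers past 1.5-fold and the undetectable lung markers. The alternatives covered background, offset, threshold, normalisation, bright probes and the deposited ratios. With 1 array per comparison there was no replicate and no test, so precision is limited by how few arrays there are. Scan and slide batches cannot be told apart from stage.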

Additional observations from a re-analysis of the deposited data

Results flagged for a closer look

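For 5 of the 10 genes the KO over WT ratio lay on opposite sides of 0 on the 2 arrays, each time by more than the SD between probes of a gene (0.23 log2 units at P1 and 0.12 at E14). P1 minus E14, the log2 ratio differed by -1.52 for Fos, -1.45 for Dusp1, -1.36 for Klf4, -1.27 for Egr1 and -1.09 for Jun, each lower in KO at P1 and higher in KO at E14 in the setting reported. The E14 ratio of Egr1, 0.15 there, was 0.10 in the authors' deposited table, 0.03 with the local background in normexp and -0.04 with it subtracted, so in those 3 settings it was smaller than the SD between probes or below 0. The E14 ratio of Klf4, 0.17 as reported, was 0.09 with the local background in normexp. With 1 array per stage these differences were not tested, and the SD between probes does not measure the spread between animals or arrays. Among the 12005 genes detectable on both arrays, 594 (4.95%) were opposite in this way, and 441 (3.67%) were lower at P1 and higher at E14.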

How the results depend on the processing

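No paired analysis was possible because each comparison rests on 1 array and no result comes from a test. Under every setting run, Fos, Jun, Junb, Egr1, Klf4, Ier2, Ier3 and Dusp1 stayed below 0 at P1. Of the members, 6 or 7 were at least 1.5-fold lower there, beside 2.52% to 14.8% of all genes. The members' P1 median of -0.88 became -1.23 in the authors' deposited table, -0.62 with median centring, -1.29 with the local background subtracted and -1.17 with the blank mean subtracted. The 4 members at least 2-fold lower at P1 became 2 with the local background in normexp and 7 with the blank mean subtracted. The share of all genes at least 2-fold lower is not given for these settings. At E14, the members' median of 0.12 became 0.74 with median centring. Members at least 1.5-fold higher at E14, 0 as reported, numbered 6 with median centring, beside 24.9% of all genes. The 6 were Fos, Jun, Junb, Egr1, Ier2 and Dusp1, all in the brightest of 4 groups of E14 genes. The median of that group was 0.69 with median centring, itself past 1.5-fold. Members at least 1.5-fold higher numbered 2 with the local background in normexp (3.84% of all genes) and 2 with it subtracted (14.2%). Members at least 1.5-fold lower at E14 numbered 1 in the authors' deposited table (Fosb, beside 1.22% of all genes) and 1 with the local background subtracted (Atf3, beside 7.71%). Egr1, Ier2, Ier3 and Atf3 at E14, and Atf3 at P1, changed sign under some settings. The neutrophil marker median at P1 was -0.35 and turned to 0.16 with median centring. The cause of these shifts was not tested.

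Counts of all genes moved with the setting too. At P1, 524 genes were at least 1.5-fold lower and 362 higher as reported, against 320 lower and 1298 higher with median centring, 1556 and 1510 in the authors' deposited table, 1562 and 1256 with the blank mean subtracted, and 1868 and 2328 with the local background subtracted. An offset of 10 gave 922 lower and 607 higher at P1, and the local background in normexp 457 lower and 881 higher. At E14, 28 genes were lower and 39 higher as reported, against 5 and 3158 with median centring, 155 and 684 in the authors' deposited table, 422 and 362 with the blank mean subtracted, 968 and 1779 with the local background subtracted, 32 and 105 with an offset of 10, 31 and 488 with the local background in normexp, and 15 and 39 without probes read as whole numbers. Signals near the blank threshold limit Fosb on both arrays, Atf3 at P1, and Junb and Fos in KO liver at P1.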
